A study of Mus musculus with 3 samples.

Results

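The genes described here are 9 transcription factors that mark interneurons of different embryonic origin, *Lhx6*, *Satb1*, *Sox6*, *Maf*, *Nr2f2*, *Prox1*, *Npas1*, *Npas3* and *Sp8*. They were taken by name from the 32285 genes in the count matrices, and all 9 were found. Their counts were read in 1065 GABAergic and 694 glutamatergic nuclei of the basolateral amygdala (BLA), and in groups of GABAergic nuclei set by single marker genes.

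Cortical and amygdalar interneurons are born in the ventral forebrain and migrate to their targets. Cells from the medial ganglionic eminence (MGE) express the LIM homeodomain factor *Lhx6*, which acts upstream of the chromatin organizer *Satb1* and the SOX factor *Sox6* and is needed for somatostatin and parvalbumin interneurons, while *Maf*, a bZIP factor, shapes their later maturation. Cells from the caudal ganglionic eminence (CGE) carry the orphan nuclear receptor *Nr2f2* (COUP-TFII), the homeobox factor *Prox1* and the zinc finger factor *Sp8*, and give rise to *Vip*, *Cck* and part of the *Reln* interneurons. *Npas1* and *Npas3* are bHLH-PAS factors, and *Npas1* restrains the production of CGE interneurons. The lateral ganglionic eminence gives rise to striatal neurons and to the intercalated cells around the BLA, which express *Foxp2*.

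The tissue was BLA dissected from male C57BL/6NRj mice aged 56 days, each dataset pooling 4 brains, and there was no second condition, treatment or transgene. Nuclear RNA was made into 3 libraries with 10x 3′ chemistry, in which each RNA molecule carries a unique molecular identifier (UMI) that is counted once. Libraries 2 and 3 are used below. They held 3792 and 4588 barcodes with medians of 3316 and 4116 UMIs, and shared 7 barcode sequences with each other. Library 1 held 819 barcodes, of which 7 met the definition of a GABAergic and 42 that of a glutamatergic nucleus, and its glutamatergic nuclei stood apart, with a *Sox6* UMI in 61.9% of them against 7.44% and 12.9% in libraries 2 and 3. Neither the labels nor the methods settle whether the libraries came from separate pools of brains, so the p-values below measure only the spread between these libraries, which may be technical.

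A GABAergic nucleus was a barcode with at least 2 UMIs of *Gad1* and *Gad2*, none of the vesicular glutamate transporters *Slc17a7* and *Slc17a6*, and under 0.1% of its UMIs from the astrocyte transporters *Slc1a2* and *Slc1a3*. This gave 388 nuclei in library 2 and 677 in library 3. Glutamatergic nuclei were defined the same way with transmitter genes exchanged and numbered 484 and 210. Within GABAergic nuclei, 5 gates were set on raw counts. They were at least 3 *Foxp2* UMIs (153 and 351 nuclei in libraries 2 and 3), 1 *Sst* UMI (38 and 88), 2 *Moxd1* UMIs (63 and 93), 1 *Vip* UMI (15 and 26) and 4 *Cnr1* UMIs (16 and 21). Of all GABAergic nuclei, 94 met 2 or more gates and 300 met none, and 49 met both the *Sst* and the *Moxd1* gate. For *Foxp2*, 6 and 7 nuclei sat exactly at the threshold and 6 and 11 were 1 UMI short of it, while for *Moxd1* 17 and 28 sat at it and 32 and 42 were 1 short. Exactly 1 UMI of the gate gene was held by 12 and 46 nuclei of the *Sst* gate and by 4 and 15 of the *Vip* gate. The *Foxp2* and the *Sst* gate were both met by 21 nuclei, and 59 nuclei met the *Sst* gate alone. Median depth was 7646 and 7246 UMIs in GABAergic nuclei, and 15526 and 13077 in glutamatergic ones, so shares were also computed as the expectation after thinning each nucleus to 3400 UMIs.

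The classes and the gates other than *Sst* were checked against some of the markers that they did not use. No such marker is given here for the *Sst* gate. *Dlx6os1*, a transcript of the GABAergic lineage, had a UMI in 68.9% of GABAergic and 4.85% of glutamatergic nuclei (means of 2 libraries), whereas the vesicular GABA transporter *Slc32a1* was seen in only 12.3% of GABAergic nuclei. In the *Foxp2* gate 89.8% of nuclei held *Tshz1*, a marker of intercalated cells, and 15.1% the dopamine receptor *Drd1*. The *Moxd1* gate held *Calb1* in 84.3%, and the *Cnr1* gate held *Cck*, the peptide of CB1-positive basket cells, in 46.6% and *Reln* in 81.1%. In the *Vip* gate *Calb2* and *Crh*, markers of VIP interneurons, each had a UMI in only 7.18% of nuclei, while *Egfr* had one in 79.9%. Several of these markers were also common outside their gate. Of all 1065 GABAergic nuclei, 570 held *Tshz1*, 312 *Calb1*, 235 *Reln*, 169 *Egfr*, 92 *Drd1* and 57 *Cck*. *Reln* and *Egfr* had been listed beforehand as markers of neurogliaform cells. Of the other markers listed for CB1-positive basket cells and VIP interneurons, *Slc17a8*, *Htr3a* and *Tac2* were held by 9, 12 and 14 GABAergic nuclei. Their shares in the gates are not given here. The gates are called by their gene and not by a cell type.

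Promoter sequences are shown for 2 genes of the MGE group, *Lhx6* and *Sox6*, and 2 of the CGE group, *Prox1* and *Npas1*. Each was taken from the outermost start site that RefSeq lists on GRCm38.p6 (250 bases before to 50 after the start, on the strand of the gene). Of the 9 genes, 8 had an entry, and *Maf* had none. The windows are chr2:36105359-36105658 for *Lhx6*, chr7:116038695-116038994 for *Sox6*, chr1:190170778-190171077 for *Prox1* and chr7:16476731-16477030 for *Npas1*, all on the minus strand, and capitals mark the GC box GGGCGG and the CCAAT box on either strand.
Lhx6: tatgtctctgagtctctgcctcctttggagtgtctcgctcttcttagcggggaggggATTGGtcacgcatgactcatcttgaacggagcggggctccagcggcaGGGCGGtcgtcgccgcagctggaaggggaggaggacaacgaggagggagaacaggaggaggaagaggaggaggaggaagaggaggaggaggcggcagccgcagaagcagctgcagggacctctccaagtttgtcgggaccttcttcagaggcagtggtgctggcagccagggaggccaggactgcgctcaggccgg
Sox6: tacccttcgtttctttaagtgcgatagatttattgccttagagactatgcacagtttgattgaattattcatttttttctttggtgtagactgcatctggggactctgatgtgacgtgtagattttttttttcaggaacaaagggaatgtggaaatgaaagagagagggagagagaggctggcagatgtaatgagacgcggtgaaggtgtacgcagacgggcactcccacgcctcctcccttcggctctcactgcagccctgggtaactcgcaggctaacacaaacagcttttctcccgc
Prox1: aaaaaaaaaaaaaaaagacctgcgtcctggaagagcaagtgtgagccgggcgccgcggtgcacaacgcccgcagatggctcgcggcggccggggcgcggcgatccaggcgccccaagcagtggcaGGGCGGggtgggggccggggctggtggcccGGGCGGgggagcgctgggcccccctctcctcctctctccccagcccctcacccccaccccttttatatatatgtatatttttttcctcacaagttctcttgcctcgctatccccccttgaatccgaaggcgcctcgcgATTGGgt
Npas1: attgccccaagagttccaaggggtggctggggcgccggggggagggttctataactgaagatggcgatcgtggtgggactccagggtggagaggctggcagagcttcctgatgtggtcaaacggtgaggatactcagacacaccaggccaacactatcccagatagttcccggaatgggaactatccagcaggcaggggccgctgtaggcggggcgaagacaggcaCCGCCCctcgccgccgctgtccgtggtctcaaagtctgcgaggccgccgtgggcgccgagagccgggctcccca
The *Prox1* window held 2 GC boxes and 1 CCAAT box, that of *Lhx6* held 1 of each, that of *Npas1* held 1 GC box, and that of *Sox6* held neither. Over all 32851 promoter windows in the table, 35.7% held a GC box and 37.4% a CCAAT box. The homeodomain core TAATTA, the SOX core ACAAT, the nuclear receptor half-site AGGTCA and the MAF half-site TGCTGA were searched on both strands as well, and none of the 8 windows held any of them, against 5.29%, 31.0%, 16.3% and 19.5% of all windows. No marked match overlapped another. G and C made up 63.3% of the *Lhx6*, 64.3% of the *Prox1* and *Npas1* and 47.0% of the *Sox6* window. The genes also differ widely in length on GRCm38, from *Sp8* with 6.25 kb and *Nr2f2* with 14.8 kb to *Sox6* with 567.9 kb and *Npas3* with 823.5 kb, so their levels in nuclear RNA were not compared with each other.

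The first comparison asked how each factor differs between GABAergic and glutamatergic nuclei. *Lhx6*, *Maf*, *Npas1*, *Sox6* and *Prox1* were higher in GABAergic nuclei, and *Nr2f2* and *Satb1* were higher in glutamatergic nuclei. Of the 8 factors with enough counts for the test, 7 were thus called, at an adjusted p under 0.05 in edgeR's quasi-likelihood test on UMIs summed per library. Over all 12872 genes tested, 16.4% were called, 8.66% as higher and 7.75% as lower in GABAergic nuclei. The median log2 fold change was 3.61 over the 8 factors and 0.02 over all genes. With the library as a block, the same 7 factors were called, while the count over all genes went from 1115 higher and 997 lower to 1642 and 1574.

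*Lhx6* had 31.9 and 17.0 CPM in GABAergic nuclei of libraries 2 and 3, CPM being its UMIs scaled to the summed total of the group. In glutamatergic nuclei there was 1 UMI in library 2 (0.119 CPM) and none in library 3, where 0 of 210 nuclei allows a share of up to 1.43%. The groups did not overlap, and the ratio of the pooled levels was 261 with a 95% counting interval from 46.4 to 10363. The fitted log2 fold change was 7.77 ± 0.61 (SE, adjusted p = 2.17e-06).

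*Maf* reached 192 and 147 CPM in GABAergic against 1.91 and 4.10 CPM in glutamatergic nuclei, a log2 fold change of 6.02 ± 0.29 (adjusted p = 5.32e-08). *Npas1* had 23.2 and 10.6 CPM in GABAergic against 0.834 and 0 CPM in glutamatergic nuclei, and its log2 fold change was 4.75 ± 0.57 (adjusted p = 6.00e-05). *Sox6* gave 516 and 474 CPM against 10.6 and 47.3 CPM, and *Prox1* 42.3 and 29.6 CPM against 3.69 and 5.04 CPM. In none of these genes did the libraries of the 2 classes overlap. The log2 fold change was 4.14 ± 0.51 for *Sox6* (adjusted p = 6.77e-05) and 3.08 ± 0.28 for *Prox1* (adjusted p = 6.50e-06).

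The *Sox6* UMIs of glutamatergic nuclei went together with markers of oligodendrocyte precursors (OPCs). Of the glutamatergic nuclei with *Sox6*, 6 of 36 in library 2 and 3 of 27 in library 3 also held at least 3 UMIs of *Pdgfra*, *Cspg4* and *C1ql1*, and these carried 27.0% and 42.7% of the class's *Sox6* UMIs. None of the 448 and 183 glutamatergic nuclei without *Sox6* did. Among GABAergic nuclei, 8 of 138 and 9 of 223 with *Sox6* and none of the 250 and 454 without it held that many OPC marker UMIs, and they carried 4.39% and 5.24% of the *Sox6* UMIs. The part of such nuclei in the difference between classes was not tested.

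The CGE factor *Nr2f2* went the other way. Its level was 12.9 and 17.0 CPM in GABAergic and 74.1 and 61.5 CPM in glutamatergic nuclei, a log2 fold change of -2.17 ± 0.20 (adjusted p = 6.95e-06), and 60.1% and 47.6% of glutamatergic nuclei held a UMI against 10.6% and 10.9% of GABAergic ones. *Satb1* had 58.5 and 51.4 CPM in GABAergic and 84.1 and 68.1 CPM in glutamatergic nuclei. This smaller difference, -0.50 ± 0.15 on the log2 scale, passed the threshold in edgeR (adjusted p = 0.0376) but not in DESeq2 (adjusted p = 0.261). *Npas3* had 985 and 929 CPM against 773 and 916 CPM and was not called (0.13 ± 0.26, adjusted p = 0.830). Adding the glutamatergic sum of library 1 to the fit left 1 of the 7 calls, *Prox1*.

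Within GABAergic nuclei the factors divided the gates, and the MGE factors are given first. *Lhx6* had a UMI in 42.1% and 36.4% of *Sst* gate nuclei and in 41.3% and 38.7% of *Moxd1* gate nuclei (libraries 2 and 3). The shares in the *Vip* gate (13.3% and 0%) and the *Cnr1* gate (12.5% and 0%) came from library 2 alone. Of the 28 nuclei that met the *Cnr1* gate alone, none held a UMI. In the *Foxp2* gate 3.27% and 2.28% of nuclei held one, and 17.7% and 14.1% of the nuclei that met no gate. Thinned to equal depth, the mean share was 18.1% in the *Sst*, 17.0% in the *Moxd1* and 0.668% in the *Foxp2* gate. Thinned shares of groups that should lack the gene were 0.430% in oligodendrocytes, 0.0564% in glutamatergic nuclei and 0% in astrocytes and OPCs. In microglia it was 1.73%, from 1 UMI in all, so the *Foxp2* gate share did not stand above every one of these groups.

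The share of nuclei with *Sox6* was 78.9% and 80.7% in the *Sst* gate and 95.2% and 95.7% in the *Moxd1* gate, and among nuclei that met the *Moxd1* gate alone it was found in 93 of 93. The level was 1448 and 1523 CPM in the *Moxd1*, 1189 and 1192 CPM in the *Sst*, and 155 and 92.3 CPM in the *Foxp2* gate, and these ranges did not overlap. Between the libraries the *Vip* gate ran from 70.3 to 158 CPM and the *Cnr1* gate from 10.6 to 455 CPM, and both overlapped the *Foxp2* gate. Nuclei of no gate had 361 to 466 CPM. Thinning changed these shares little, to 92.5% for *Moxd1* and 74.1% for *Sst*. The 8.24% that remained in the *Foxp2* gate was below the 13.7% in oligodendrocytes and above the 4.41% in glutamatergic nuclei. It is not read as expression across that gate. Parvalbumin, the calcium-binding protein of the other main MGE class, had a UMI in only 10 GABAergic nuclei, and all 10 also held *Sox6*.

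*Satb1* was led by the *Sst* gate, with 52.6% and 47.7% of nuclei and 176 and 154 CPM. The *Moxd1* gate followed with 83.0 and 87.9 CPM, a range that overlapped that of glutamatergic nuclei, and the *Foxp2* gate had the lowest mean, with 15.3 and 21.6 CPM. After thinning, 32.9% of *Sst* gate nuclei but only 11.8% of all GABAergic nuclei held a UMI. The *Moxd1* gate gave 19.2%. Oligodendrocytes and astrocytes gave 12.8% and 13.6%, and OPCs 24.1%. The mean of the *Sst* gate was above all of these and that of the *Moxd1* gate above the first 2. Microglia gave 29.4% with an SD of 19.6 between the libraries, since most of their nuclei were too shallow to thin, and are not ranked.

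*Maf* did not keep to the *Sst* and *Moxd1* gates. It was found in 100% and 85.7% of *Cnr1* gate nuclei, 88.9% and 77.4% in the *Moxd1*, 73.3% and 57.7% in the *Vip* and 63.2% and 55.7% in the *Sst* gate, and in 12.4% and 9.12% in the *Foxp2* gate. In CPM the *Moxd1* gate was highest, at 486 and 364, followed by the *Sst* gate (361 and 211) and the *Cnr1* gate (240.0 and 322), whose ranges overlapped. Nuclei that met a single gate gave another order. Their means were 493 CPM in the *Moxd1*, 316 CPM in the *Cnr1*, 199 CPM in the *Sst* and 197 CPM in the *Vip* gate. The *Foxp2* gate had 36.7 and 33.6 CPM, below every other GABAergic group in both libraries. The thinned share was 5.51% in the *Foxp2* gate and 0.926% in glutamatergic nuclei. In oligodendrocytes it was 1.79%, in OPCs 4.63% and in microglia 44.8%.

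**Figure D1:**
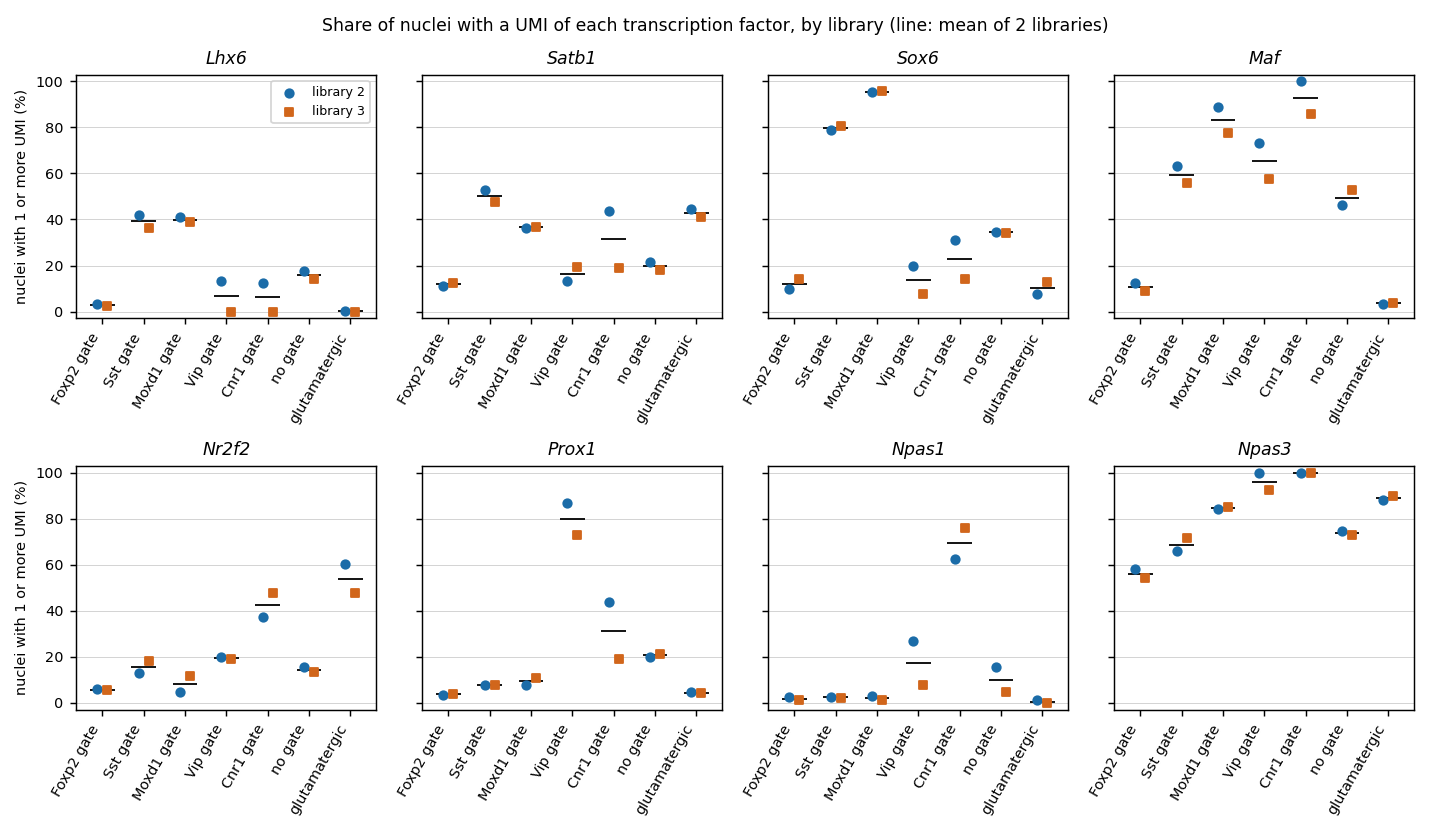
Share of nuclei with at least 1 UMI (%, vertical axis) for 8 factors in the 5 gates of GABAergic nuclei, in GABAergic nuclei of no gate and in glutamatergic nuclei; circles are library 2, squares library 3 and lines their mean. *Lhx6* and *Sox6* are high in the *Sst* and *Moxd1* gates, *Prox1* in the *Vip* gate (86.7% and 73.1%) and *Npas1* in the *Cnr1* gate (62.5% and 76.2%), and *Sp8*, with 1 UMI in all, is left out.

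Among the CGE factors, *Prox1* was led by the *Vip* gate. A UMI was found in 86.7% and 73.1% of its nuclei, with 396 and 256 CPM, whereas the *Cnr1* gate had 43.8% and 19.0% of nuclei and 111 and 28.3 CPM. In the *Sst* gate 7.89% and 7.95% held one, in the *Moxd1* gate 7.94% and 10.8%, and in the *Foxp2* gate 3.27% and 3.99%. Counted by nuclei, 32 of the 136 GABAergic nuclei with *Prox1* met the *Vip* gate and 62 met no gate, where the mean level was 58.9 CPM. The thinned shares were 63.6% in the *Vip* and 20.7% in the *Cnr1* gate, and 4.51% in the *Sst* and 4.91% in the *Moxd1* gate. The last 2 were below the 5.33% of astrocytes and above the 1.32% of glutamatergic nuclei.

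*Npas1* was led by the *Cnr1* gate. It was found in 62.5% and 76.2% of its nuclei at 117 and 152 CPM, and in 26.7% and 7.69% of *Vip* gate nuclei at 50.3 and 15.1 CPM. In the *Sst*, *Moxd1* and *Foxp2* gates the shares ran from 1.08% to 3.17%. Counted by nuclei, 26 of the 67 GABAergic nuclei with *Npas1* met the *Cnr1* gate and 28 met no gate. No *Npas1* UMI was seen in 1149 astrocytes. *Cnr1* gate nuclei were among the deepest, with medians of 14708 and 12641 UMIs, and their thinned share was 36.5%, against 8.99% in the *Vip* gate.

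*Nr2f2* had its highest GABAergic level in the *Cnr1* gate, with a UMI in 37.5% and 47.6% of nuclei and 25.3 and 60.2 CPM, which overlapped the 21.6 and 35.2 CPM of the *Vip* gate. The *Moxd1* gate had 5.19 and 11.1 CPM and the *Foxp2* gate 6.93 and 7.42 CPM. Both libraries of glutamatergic nuclei, at 74.1 and 61.5 CPM, lay above every GABAergic gate, closest to the 60.2 CPM of the *Cnr1* gate. Nuclei that met the *Cnr1* gate alone had 44.6 ± 25.6 CPM (mean ± SD, 2 libraries) and overlapped the glutamatergic range.

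*Npas3* was detected in most nuclei of every gate, and it was the level that differed. It stood at 3948 and 5278 CPM in the *Cnr1* and 3438 and 2050 CPM in the *Vip* gate, at 648 and 704 CPM in the *Moxd1*, 582 and 498 CPM in the *Sst* and 290.5 and 331.9 CPM in the *Foxp2* gate. In this order no neighbouring gates overlapped. *Sp8* gave 1 UMI in all, in a nucleus of the *Foxp2* gate of library 2. Its share there was 0.258% of 388 GABAergic nuclei, with an exact binomial interval from 0.00653% to 1.43%. With 0 of 677 GABAergic nuclei in library 3, a share of up to 0.443% is allowed there, and *Sp8* entered no test.

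The tests between gates used nuclei of exactly 1 gate, summed per library, in 1 fit over all groups. The question was whether the factors separate the *Sst* gate from the *Vip* and *Cnr1* gates, and the *Foxp2* and *Moxd1* gates from these. In the *Sst* gate against the mean of the *Vip* and *Cnr1* gates, *Lhx6*, *Sox6* and *Satb1* were higher and *Prox1*, *Npas1* and *Npas3* lower. That is 6 of 8 factors, where 5.75% of 7449 genes tested were called (3.79% higher, 1.96% lower). *Maf* (-0.41 ± 0.30, adjusted p = 0.570) and *Nr2f2* (-0.90 ± 0.60, adjusted p = 0.535) were not called. The median log2 fold change over the factors without *Lhx6* was -0.90, against 0.09 over all genes.

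*Sox6* had 1079 and 1312 CPM in the *Sst* gate sums of libraries 2 and 3, 34.1 and 21.4 CPM in those of the *Vip* gate and 13.2 and 12.5 CPM in those of the *Cnr1* gate, a log2 fold change of 5.94 ± 0.55 (adjusted p = 9.74e-07). *Satb1* rose by 2.79 ± 0.37 (adjusted p = 4.22e-05), from 170.8 and 257.9 CPM in the *Sst* gate against at most 45.5 CPM in the others. For *Lhx6* the *Sst* gate sums held 33 UMIs, the *Vip* gate 1 and the *Cnr1* gate 0. Taking 3 counts over the group as the floor, its level was 8.28-fold higher in the *Sst* than in the *Cnr1* gate, with a lower counting limit of 6.36. It was 14.5 times that of the *Vip* gate with a counting interval from 2.43 to 590.1. The fitted value for *Lhx6*, 6.64 ± 1.25 (adjusted p = 0.00195), depends on the prior count and is not a bound.

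On the CGE side, *Npas3* fell by 3.67 ± 0.31 on the log2 scale in the *Sst* gate (adjusted p = 5.47e-07), with 336.8 and 324.8 CPM against 2383 CPM or more in the *Vip* and *Cnr1* gates. *Prox1* fell by 2.99 ± 0.56 (adjusted p = 0.00166) and *Npas1* by 5.27 ± 1.19 (adjusted p = 0.00832). The *Npas1* value rests on 1 *Npas1* UMI in the *Sst* gate sums against 69 in the *Cnr1* gate and 7 in the *Vip* gate. With library 1 in the fit, *Lhx6* (adjusted p = 0.0681) and *Npas1* (adjusted p = 0.0502) lost their calls.

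In the *Foxp2* gate against the mean of the *Sst*, *Vip* and *Cnr1* gates, *Maf*, *Npas3*, *Prox1*, *Nr2f2* and *Satb1* were lower and no factor was higher. These 5 of 8 compare with 5.79% of 7449 genes called lower and 8.95% called higher, 14.7% in all. *Maf* fell by 3.70 ± 0.31 on the log2 scale (adjusted p = 4.38e-08), with 27.9 and 11.8 CPM in the *Foxp2* gate sums and at least 159 CPM in each other sum. The change was -2.84 ± 0.28 for *Npas3*, -2.75 ± 0.45 for *Prox1*, -2.28 ± 0.47 for *Nr2f2* and -2.04 ± 0.40 for *Satb1*, and none of their adjusted p exceeded 0.00150. *Sox6* (-0.86 ± 0.63) and *Lhx6* (-0.54 ± 4.51) were not called. For both, the mean of the other gates joins the *Sst* gate with the *Vip* and *Cnr1* gates, which held 6 and 5 UMIs of *Sox6* and 1 and 0 of *Lhx6*. Set against the *Sst* gate alone, the *Foxp2* gate had 0.0343 times its pooled *Sox6* level, with a counting interval from 0.0287 to 0.0409, and 0.0290 times its *Lhx6* level (0.0108 to 0.0666). *Npas1* was at -3.97 ± 1.45 with an adjusted p of 0.0721, and with the library as a block it was called (-3.94, adjusted p = 0.0385). The median over the factors without *Lhx6* was -2.75, against 0.07 over all genes.

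The *Moxd1* gate was set against the same 3 gates. *Sox6*, *Lhx6* and *Maf* were higher and *Npas3*, *Nr2f2* and *Prox1* lower, 6 of 8 factors where 7.75% of genes were called (4.62% higher, 3.13% lower). *Sox6* rose by 4.39 ± 0.42 (adjusted p = 9.14e-07), *Lhx6* by 4.01 ± 0.99 (adjusted p = 0.0137) and *Maf* by 1.03 ± 0.23 (adjusted p = 0.00517). *Nr2f2* fell by 2.29 ± 0.61, *Prox1* by 1.60 ± 0.47 and *Npas3* by 1.26 ± 0.26. *Satb1* (-0.04 ± 0.37, adjusted p = 0.981) and *Npas1* (-3.47 ± 1.51, adjusted p = 0.206) were not called. Against the *Sst* gate alone, the pooled *Moxd1* gate level was 1.31 times as high for *Sox6* (1.19 to 1.43), 0.757 times for *Lhx6* (0.476 to 1.22), 0.260 times for *Satb1* (0.187 to 0.360) and 2.44 times for *Maf* (1.97 to 3.04), with intervals of counting error only. By the same floor as above, *Lhx6* was 6.27-fold higher in the *Moxd1* than in the *Cnr1* gate, with a lower counting limit of 4.91. When nuclei of several gates were kept, *Lhx6* and *Maf* lost their calls, and without the deepest 5% of barcodes *Prox1* lost its call (adjusted p = 0.104), in a fit with the *Cnr1* gate from library 3 alone. The median over the factors without *Lhx6* was -1.26, against 0.07 over all genes.

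Between the *Vip* and the *Cnr1* gate, *Prox1* was higher in the *Vip* gate and *Npas1* and *Npas3* were higher in the *Cnr1* gate. That makes 3 of 8 factors, where 4.16% of genes were called (2.11% higher and 2.05% lower in the *Vip* gate). *Prox1* had 329.9 and 328.1 CPM in the *Vip* gate sums against 59.5 and 29.3 CPM in the *Cnr1* gate sums, a log2 fold change of 2.90 ± 0.46 (adjusted p = 0.000590). *Npas1* had 45.5 and 21.4 CPM against 191.7 and 167.2 CPM (-2.61 ± 0.73, adjusted p = 0.0467), and *Npas3* 3060 and 2383 CPM against 6029 and 5850 CPM (-1.23 ± 0.29, adjusted p = 0.0170). *Nr2f2* did not differ detectably (-0.55 ± 0.71, adjusted p = 0.811). The *Npas1* call was lost with another scaling of the libraries, and with overlapping nuclei kept only *Prox1* was called. The median over the factors without *Lhx6* was -0.55, against -0.03 over all genes.

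**Figure D2:**
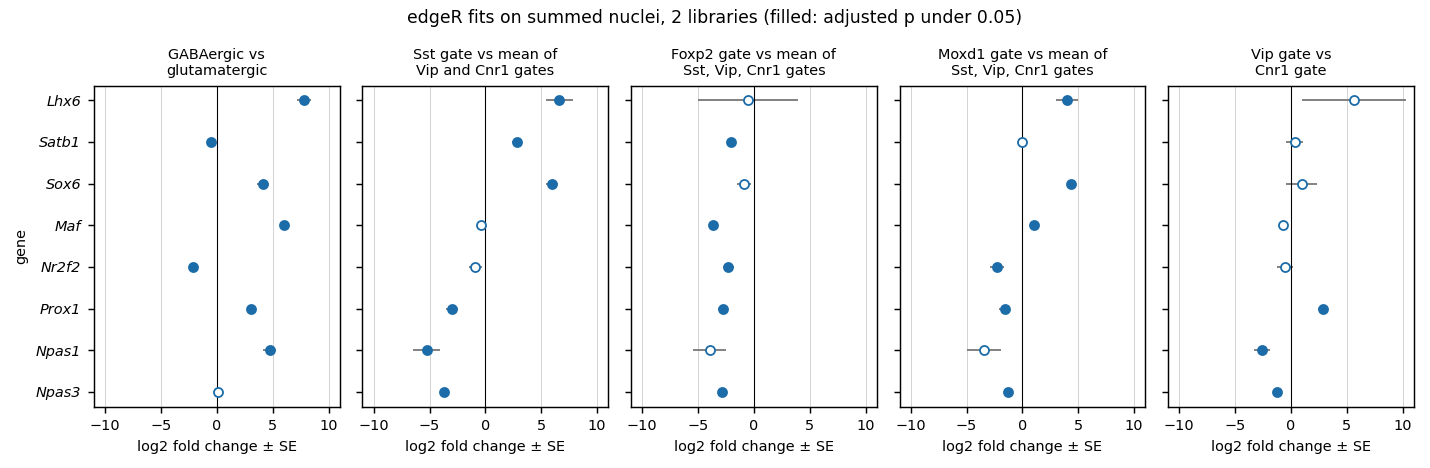
Log2 fold change (horizontal axis, with the standard error as bar) of 8 factors in the 5 comparisons, from edgeR fits on UMIs summed per library, 2 libraries per group; filled points have an adjusted p under 0.05. *Sox6* lies at 5.94 in the *Sst* and 4.39 in the *Moxd1* comparison, and no factor of the *Foxp2* comparison is filled to the right of 0. The wide bars belong to *Lhx6* and *Npas1*, which have few or no UMIs in some gates.

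Other developmental factors were counted by list. In GABAergic against glutamatergic nuclei, 4 of 4 tested genes of the pan-GABAergic list were higher (5 in the list, median log2 fold change 5.02), among them the homeobox genes *Dlx1* at 5.24 and *Dlx6* at 4.80. Of the list for the lateral ganglionic eminence and intercalated cells, 6 of 8 tested genes were higher and none lower (median 2.51), led by *Six3* (6.14), *Tshz1* (2.47) and *Pax6* (4.30). Of the MGE list, 3 of 5 genes were tested, with 1 higher and 1 lower. *Lmo3* was the lower one (-1.63) and *Zeb2* was not called (-0.15 ± 0.23). *Nkx2-1* and *Lhx8*, which specify MGE progenitors, had too few counts for the test. The CGE list gave *Sp9* as higher (4.42) and *Nr2f1*, the paralog of *Nr2f2*, as lower (-0.84 ± 0.18, adjusted p = 0.00484).

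In the *Foxp2* gate against the mean of the other 3, 5 of 8 tested genes of the intercalated list were higher and none lower, with *Tshz1* at 3.61, *Meis2* at 5.42 and *Pbx3* at 2.82 (list median 3.71). *Zeb2*, which MGE interneurons need to reach the cortex, was lower by a log2 change of -3.28, and *Dlx1* of the pan-GABAergic list was lower (-2.62). In the *Sst* comparison *Zeb2* was lower too (-2.34), the MGE list had no gene higher, and of the intercalated list *Zfhx3* and *Meis2* were higher and *Pbx3* lower. The *Moxd1* comparison gave 2 of 3 tested genes of the MGE list as higher, among them *Lmo3* (1.02), and *Pbx3* and *Tshz1* as lower. Between the *Vip* and *Cnr1* gates only *Pbx3* of all 4 lists was called, higher in the *Vip* gate (2.29).

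The factors were then taken nucleus by nucleus, as the ratio of nuclei that held UMIs of both genes to the number expected from the product of their shares in each library. Sparse counts lower the number of nuclei seen with both genes, and deep nuclei hold more of every gene, so the expectation was also taken within groups of about 20 nuclei of like depth. These ratios describe 1065 nuclei of 2 libraries and were not tested. Of the 28 pairs among 8 factors, 21 were above 1 and 5 below 1 in both libraries, and within depth groups 19 and 6.

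*Lhx6* and *Sox6* shared 126 nuclei, 2.40 and 2.95 times the expectation in libraries 2 and 3 (2.24 ± 0.36 within depth groups, SD, n = 2). Of the nuclei with *Lhx6*, 85.5% and 97.3% also held *Sox6*, while 38.4% and 32.7% of those with *Sox6* held *Lhx6*. *Lhx6* and *Satb1* shared 66 nuclei (2.06 and 2.62 times) and *Sox6* and *Satb1* 126 (1.59 and 1.81 times). Within depth groups the last 2 pairs stood at 1.79 and 1.51. Outside the *Foxp2* gate these ratios were smaller, at 1.74 ± 0.14 for *Lhx6* with *Sox6*, 1.77 ± 0.27 for *Lhx6* with *Satb1* and 1.35 ± 0.13 for *Sox6* with *Satb1* (mean ± SD, 2 libraries).

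*Lhx6* and *Npas1* met in 2 nuclei of library 2, where 6.07 were expected, and in 0 of library 3, where 3.21 were expected. *Lhx6* and *Prox1* shared 7 and 4 nuclei (0.827 and 0.435 times the expectation), and *Sox6* and *Npas1* 9 and 4 (0.666 and 0.419 times). Among GABAergic nuclei outside the *Foxp2* gate, where most of these factors are detected, *Lhx6* with *Prox1* stood at 0.399 ± 0.165, *Satb1* with *Prox1* at 0.370 ± 0.014 and *Sox6* with *Prox1* at 0.516 ± 0.115 (mean ± SD, 2 libraries). Not every pair of an MGE and a CGE factor was below 1. *Satb1* and *Nr2f2* shared 15 and 28 nuclei, 1.67 and 1.96 times the expectation, and stood at 1.40 ± 0.14 outside the *Foxp2* gate. *Satb1* with *Npas1* gave 1.56 and 0.891 times, and *Lhx6* with *Nr2f2* 1.07 and 1.22 times. Outside the *Foxp2* gate the means of these pairs were 0.835 ± 0.545 and 0.829 ± 0.079.

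*Prox1* and *Npas1* shared 14 and 8 nuclei, 2.70 and 2.25 times the expectation. Outside the *Foxp2* gate their mean ratio was 1.60 ± 0.39. *Nr2f2* and *Npas1* shared 8 and 14 (1.99 and 4.42 times, with a mean of 2.29 ± 0.79 outside the *Foxp2* gate), and *Nr2f2* and *Prox1* 6 and 27. That last pair gave 1.07 times the expectation in library 2 and 2.98 times in library 3, so its value differed between the libraries more than any other pair except *Nr2f2* with *Npas1*. *Maf* was above 1 with every other factor in both libraries, with *Sox6* (1.76 ± 0.02), *Prox1* (1.69 ± 0.18) and *Npas1* (1.94 ± 0.37) alike, but outside the *Foxp2* gate its ratios with these 3 were 1.18, 1.08 and 1.24. *Npas3*, detected in most nuclei, gave ratios of 1.08 to 1.43 with all others.

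**Figure D3:**
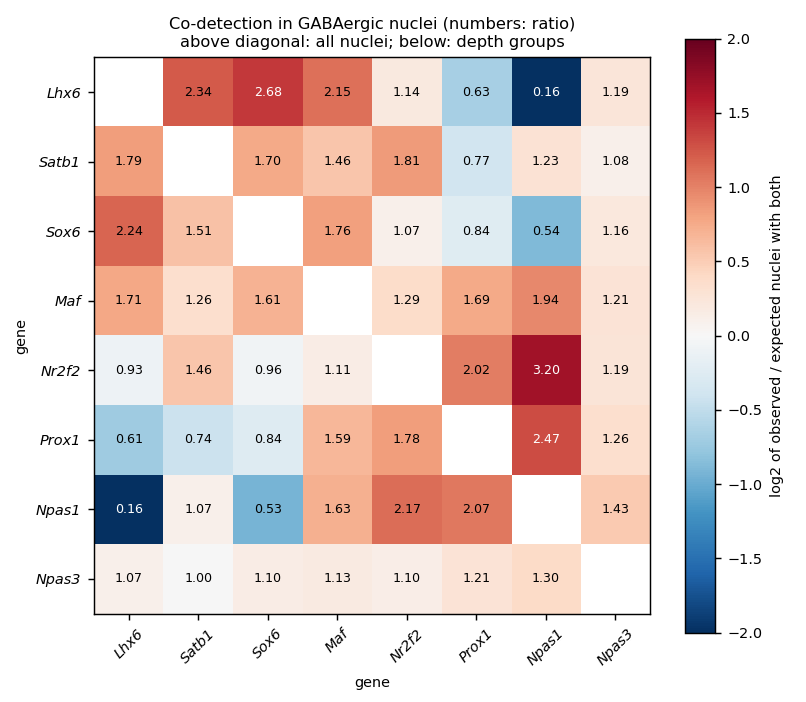
Ratio of observed to expected nuclei with UMIs of both genes (number in each cell, colour on a log2 scale), mean of libraries 2 and 3 over 1065 GABAergic nuclei; cells above the diagonal use all nuclei, those below it groups of like depth. *Lhx6*, *Sox6* and *Satb1* share red cells, and the cells of *Lhx6* with *Npas1* (0.165) and of *Sox6* with *Npas1* (0.542) are blue.

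Taken as sets, a UMI of *Lhx6*, *Sox6* or *Satb1* and none of *Prox1*, *Npas1* or *Nr2f2* was found in 81.0% and 75.3% of *Moxd1* gate nuclei and in 68.4% and 64.8% of *Sst* gate nuclei. The reverse held in 66.7% and 61.5% of *Vip* gate nuclei, 43.8% and 57.1% of *Cnr1* gate nuclei and in 0% of the *Moxd1* gate. In the *Foxp2* gate 73.9% and 71.8% of nuclei held none of the 6 genes, against 28.5% and 33.5% of the GABAergic nuclei of no gate. UMIs of both sets were held by 43.8% and 28.6% of *Cnr1* gate nuclei and by 26.7% and 19.2% of *Vip* gate nuclei. In the *Sst* gate these shares were 15.8% and 20.5%, and in the *Moxd1* gate 14.3% and 20.4%. Glutamatergic nuclei, through *Satb1* and *Nr2f2*, held UMIs of both sets in 31.2% and 24.3%.

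The factors were next set beside the peptides, receptors and calcium-binding proteins of interneurons. Of GABAergic nuclei with *Lhx6*, 25.8% and 42.7% held *Sst* against 6.75% and 9.30% of those without, 72.6% and 70.7% held *Calb1* against 22.1% and 23.6%, and 17.7% and 21.3% held *Npy* against 5.83% and 4.82%. Within depth groups the nuclei with both *Sst* and *Lhx6* were 2.36 and 2.50 times the expected number. Most nuclei with *Lhx6* therefore held no *Sst* UMI, and 61.3% and 58.7% held *Moxd1*. *Sox6* was found in 101 of 126 nuclei with *Sst*, 191 of 230 with *Moxd1* and 213 of 312 with *Calb1*.

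*Prox1* went with *Vip* and with *Egfr*, the growth factor receptor seen here in most *Vip* gate nuclei. *Vip* was found in 24.5% and 22.9% of nuclei with *Prox1* against 0.597% and 1.18% of those without, and 32 of all 41 *Vip* nuclei held *Prox1*. *Egfr* was found in 75.5% and 57.8% against 9.25% and 8.42%. Of the 136 nuclei with *Prox1*, 88 held *Egfr* and 32 held *Vip*, so most of those with *Egfr* held no *Vip* UMI. *Prox1* was also found in 14 of the 30 nuclei with *Ndnf*, a marker of neurogliaform cells. *Npas1* went with *Reln* (71.1% and 86.2% against 18.3% and 18.4%) and with *Cnr1* (60.5% and 93.1% against 16.3% and 14.8%). Nuclei with both *Cck* and *Npas1* were 5.08 and 5.23 times the expected number within depth groups, although its share in nuclei with *Npas1* was 13.2% in library 2 and 51.7% in library 3. None of the 10 nuclei with *Pvalb* held *Prox1* or *Npas1*. Of all 1065 GABAergic nuclei only 136 held *Prox1* and 67 held *Npas1*, so 10 nuclei are too few to show a lower share.

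**Figure D4:**
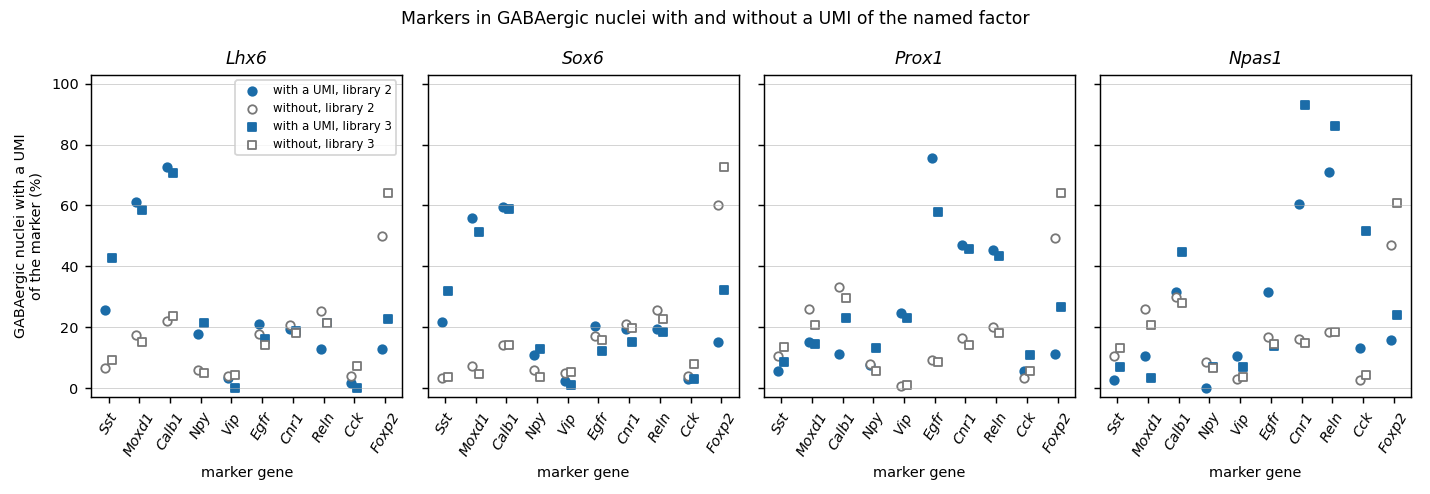
Share of GABAergic nuclei with a UMI of 10 markers (%, vertical axis), in nuclei with (filled) and without (open) a UMI of *Lhx6*, *Sox6*, *Prox1* or *Npas1*; circles are library 2 and squares library 3. Among others, filled points exceed open ones for *Sst*, *Moxd1* and *Calb1* beside *Lhx6* and *Sox6*. The same holds for *Vip*, *Egfr*, *Cnr1*, *Reln* and *Cck* beside *Prox1*, and for *Cnr1*, *Reln* and *Cck* beside *Npas1*. Filled points lie below open ones for *Foxp2* beside all 4.

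Genes with the profile most like each factor were ranked over the 7 neuronal groups of the fit, by the lower of the Pearson correlations in the 2 libraries, among 9454 genes. For *Lhx6* the first gene was *Sox6* (0.943), then *Eya1* (0.920) and *Tmcc3* (0.915). For *Sox6* it was *Crhbp*, the binding protein of corticotropin-releasing hormone (0.978), then *Camta1* (0.960) and *Rab27b* (0.954). *Maf* was most like *Frmd5* (0.965), *Kcnip1* (0.961) and *Rbms3*, and *Prox1* most like *Sntg1* (0.918), *Wrn* (0.902) and *Tnrc18* (0.898). Among the genes most like *Npas1* were *Elmod1* (0.946) and *Erc1* (0.944), and among those most like *Npas3* were *Gm47405* (0.953) and *Zbtb16* (0.930). *Nr2f2* was most like *Col4a2* (0.891), *Rtl4* and *Cdk14*, and *Satb1* most like *Gm38604* (0.917), *Hs2st1* and *Exoc6b*. Each value rests on 7 points that share their library, so the ranking is a description.

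Several of the factors were as high or higher in glia, whose nuclei were set apart by marker gates with no transmitter gene UMI. *Sox6* had 2355 and 2329 CPM in OPCs and 1282 and 1474 CPM in astrocytes, above the 516 and 474 CPM of GABAergic nuclei, and was found in 100% and 98.4% of OPCs. *Npas3* was at 5575 and 6354 CPM in astrocytes, beside 3948 and 5278 CPM in the *Cnr1* gate. *Maf* reached 537 and 269 CPM in microglia, with a UMI in 62.2% and 61.1% of nuclei at a median depth of 1863 and 1634 UMIs, and stayed at 1.95 and 4.70 CPM in astrocytes. *Prox1* had 162 and 183 CPM in oligodendrocytes, where 28.4% and 37.2% of nuclei held a UMI at 2462 and 2239 UMIs per nucleus, against 42.3 and 29.6 CPM in GABAergic nuclei. Single gates compared otherwise. The *Vip* gate, at 256 to 396 CPM of *Prox1*, lay above oligodendrocytes. The *Moxd1* gate overlapped astrocytes for *Sox6* and microglia for *Maf*.

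*Lhx6* had no UMI in 1149 astrocytes and 150 OPCs, 1 UMI in each library of oligodendrocytes, and 1 each in microglia and vascular nuclei of library 3. *Npas1* was at 0 in astrocytes and at 19.6 and 15.3 CPM in OPCs, against 23.2 and 10.6 CPM in GABAergic nuclei. Because *Prox1* and *Maf* are also glial here, their nuclei were checked for glial transcripts. Of GABAergic nuclei with *Prox1*, 2 of 53 and 7 of 83 held at least 2 UMIs of the oligodendrocyte genes *Mog*, *Mag* and *Ermn*, against 1.49% and 1.68% of those without it. Of those with *Maf*, 6 of 164 and 4 of 233 held at least 3 UMIs of the microglial genes *Csf1r*, *Cx3cr1* and *P2ry12*, and these carried 5.56% and 1.26% of the *Maf* UMIs. The part of such nuclei in the results was not tested.

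**Figure D5:**
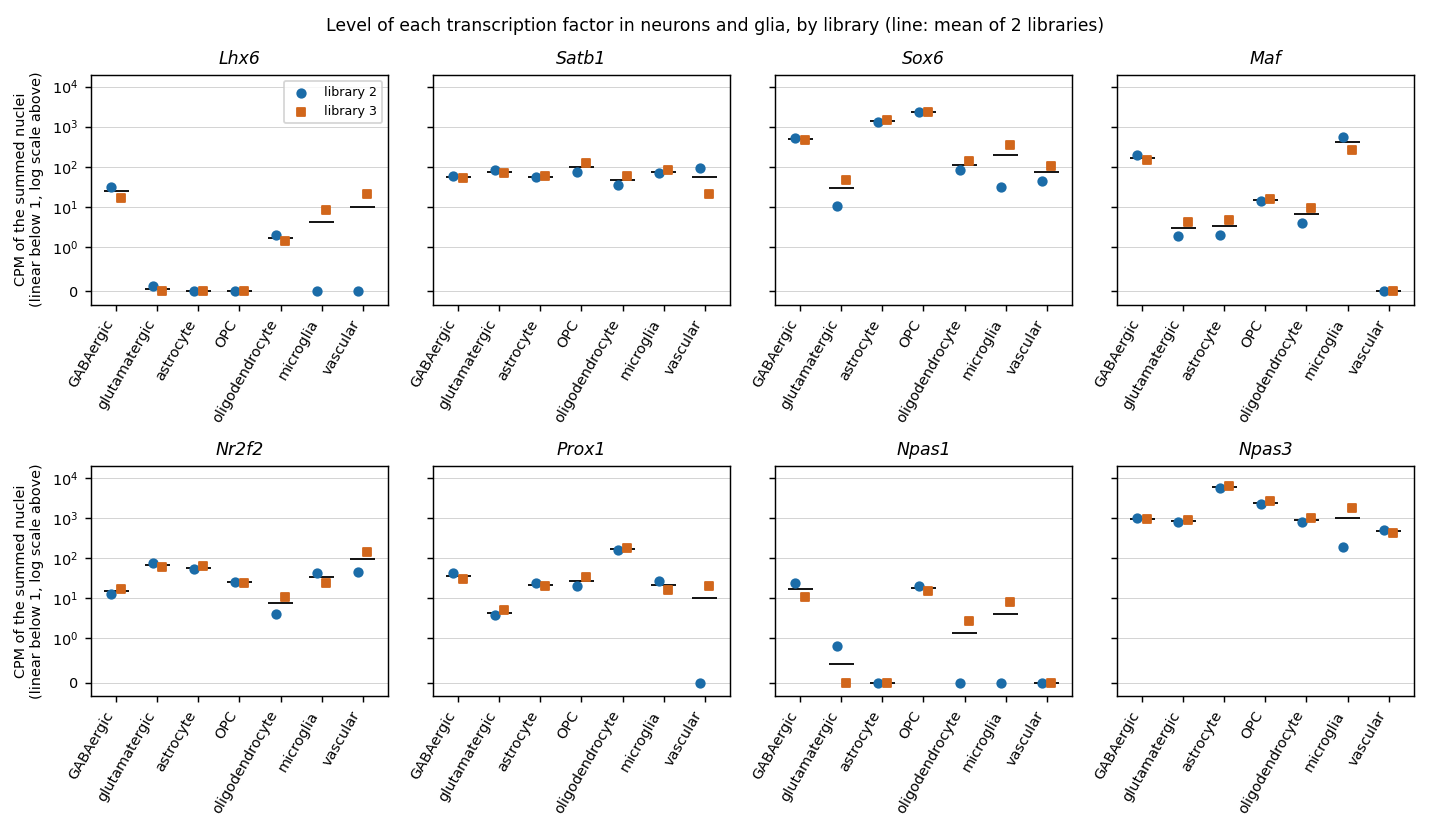
Level in CPM of the summed nuclei (vertical axis, linear below 1 and log above) of 8 factors in GABAergic and glutamatergic nuclei and in 5 glial and vascular groups; circles are library 2, squares library 3 and lines their mean. Of the groups drawn, *Sox6* and *Npas3* are highest in OPCs and astrocytes, *Prox1* in oligodendrocytes and *Maf* in microglia, while *Lhx6* is at 0 in astrocytes and OPCs.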

How the data were processed

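Nuclear RNA of the BLA was sequenced in 3 libraries with 10x 3′ v3.1 chemistry. The deposited matrices hold whole-number UMI counts per gene and barcode, made by the authors with Cell Ranger 7.0.1 (version from the submitters' processing notes) against mm10. Whether intronic reads were counted is not given in the sources used here. No column was left unmatched (0). The genes, gates and lists were chosen with earlier results of these data known. No doublet caller was run, and class definitions leave out barcodes with transmitter genes of both classes.

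UMIs were summed per library and group (at least 10 nuclei) and tested with edgeR 4.0.16 in R 4.3.3 (quasi-likelihood test, TMM, filterByExpr, Benjamini-Hochberg adjustment over all genes tested, threshold 0.05). Nuclei of exactly 1 gate, of no gate and glutamatergic nuclei entered 1 fit, and every ± beside a fold change is its SE, from 2 libraries unless stated. The alternatives were DESeq2 1.42.0, another scaling, no filter on low counts, a library block and part of the study's filters on nuclei. Others were removal of the deepest 5% of barcodes, raised or overlapping gates, library 1 added and each library left out. The filters applied were the study's limits of 200 genes, 20% mitochondrial and 0.2% hemoglobin UMIs, which removed 0 GABAergic and 2 glutamatergic nuclei. Its filters on ribosomal protein genes and on doublets were not applied. Other values came from Python 3.11.15 with numpy 2.4.6, scipy 1.17.1 and pandas 2.3.3, and the tests were tried on simulated data.

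Sums of 1 library come from the same nuclei preparation, so the library number pairs them. Deviations of the library pairs correlated between 0.0196 and 0.294 over 21 pairs of groups (median 0.0778). Libraries 2 and 3 held 24354374 and 33049068 UMIs. Of the nuclei below the 3400 UMIs used for thinning, 41 and 53 GABAergic and 24 and 12 glutamatergic ones were left out of thinned shares only. So were 118 of 169 and 225 of 274 oligodendrocytes and 194 of 321 and 483 of 828 astrocytes, so the thinned glial shares rest on the deeper minority of these nuclei. Thinning also left out 76 of 82 and 28 of 36 microglia, and 41 of 88 and 26 of 62 OPCs. Intervals and limits cover counting error only. Beside the 9 factors, at most 3 genes of each list were named, those with the smallest adjusted p in the comparison, and the 3 genes most like each factor in log2(CPM + 1), among genes with at least 10 CPM in 1 group of both libraries. Some genes that this rule names are not reported here.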

Additional observations from a re-analysis of the deposited data

Results flagged for a closer look

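Library 1 entered the comparisons only as an alternative, through its glutamatergic sum, and several of the factors were seen in it above the limit that a count of 0 allows. In its 7 GABAergic barcodes, where that limit is 42.9%, *Sox6* and *Nr2f2* each had a UMI in 57.1% and *Npas3* in 100%. In its 42 glutamatergic barcodes, where the limit is 7.14%, *Npas3* was found in 92.9%, *Sox6* in 61.9%, *Satb1* in 42.9%, *Maf* in 35.7%, *Nr2f2* in 33.3%, and *Lhx6* and *Prox1* in 9.52% each. Its *Sox6*, *Maf* and *Lhx6* shares in glutamatergic barcodes lay above those of libraries 2 and 3, which were 7.44% and 12.9%, 3.31% and 3.81%, and 0.207% and 0%. These differences were not tested.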

How the results depend on the processing

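The number of factors called in each of the 5 comparisons stayed within 1.5 times its value in 36 of 43 alternatives. Adding the glutamatergic sum of library 1, which also enters the estimate of the spread, left 1 of 7 calls between the classes (*Prox1*), 1 of 6 in the *Moxd1* comparison (*Sox6*), 1 of 3 between the *Vip* and *Cnr1* gates (*Prox1*), and 4 of 6 in the *Sst* comparison, without *Lhx6* and *Npas1*. With gates raised by 1 UMI, the *Vip* gate had a sum only in library 2 and the *Cnr1* gate only in library 3, so that these gates and the libraries cannot be told apart and each is assumed to vary like the other groups. The same holds for the *Cnr1* gate without the deepest barcodes, where library 3 alone gave a sum. Raising the gates left 3 of 5 calls in the *Foxp2*, 2 of 6 in the *Moxd1* and 1 of 3 in the *Vip* comparison, and keeping nuclei of several gates left 1 of 3 in the last. The library as a block changed no call but that of *Npas1* in the *Foxp2* comparison (adjusted p = 0.0385), which was also called with no filter, with overlapping gates and by DESeq2. The log2 fold change of *Maf* in the *Sst* comparison turned to 0.13 with overlapping and to 0.13 with raised gates, and that of *Satb1* in the *Moxd1* comparison to 0.0674 with no filter, 0.22 without the deepest barcodes, 0.0141 with library 1, 0.32 with overlapping and 0.55 with raised gates. Between the *Vip* and *Cnr1* gates, overlapping gates turned *Lhx6* to -1.19, *Satb1* to -0.90 and *Sox6* to -1.11, and no reversed value was called. Over all genes, the counts higher and lower became 1642 and 1574 (block), 705 and 660 (DESeq2) and 54 and 17 (library 1) between the classes, where they were 1115 and 997. With library 1 they were 144 and 68 against 282 and 146 for *Sst*, 445 and 213 against 667 and 431 for *Foxp2*, 213 and 89 against 344 and 233 for *Moxd1*, and 58 and 71 against 157 and 153 for *Vip*. Overlapping gates gave 172 and 98 for *Moxd1* and 37 and 58 for *Vip*, and raised gates 83 and 81 for *Vip*. The cause was not tested. Leaving out a library gives values with no test, and no called factor changed sign. Signs of factors that were not called were not counted there. *Sp8*, with 1 UMI, could not be tested at this depth.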
